A study of Mus musculus with 7 samples.

Results

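Type I interferon-stimulated genes were followed in microglia that had been sorted from inside and from outside neuronal grafts in the 5xFAD mouse cortex. The group held 40 genes, taken by gene name from a list, out of 55341 gene names in the count table. All 40 were in the table and all 40 passed the filter on low counts, as 15257 genes did in all. For 39 of them the 4 outside libraries would have been enough to pass the filter. The exception was Ifi44, which passed only with the inside libraries.

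Wild-type (WT) cortical neurons from C57BL/6 embryos had been injected into the cortex of 5xFAD mice, which carry human APP and presenilin 1 transgenes with familial Alzheimer's disease mutations under the neuron-specific Thy1 promoter. All recipients were on the C57BL/6 background, aged 14 weeks by the labels, and per the study's methods female. CD11b+CD45low cells were sorted 4 weeks after injection, either from the excised graft (inside graft, 3 libraries) or from small pieces of cortex next to it (outside graft, 4 libraries). The outside libraries therefore came from the same kind of grafted 5xFAD mouse, and no library came from an ungrafted or WT recipient. The labels do not say whether the libraries of a group came from separate mice or pools, so P values measure the spread between these libraries, which may be partly technical.

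Type I interferons signal through a receptor of 2 chains, IFNAR1 and IFNAR2, to the kinases JAK1 and TYK2, which phosphorylate STAT2 among other proteins. Together with IRF9, STAT2 is part of the complex ISGF3, which binds the interferon-stimulated response element (ISRE) in front of its target genes. The products include sensors of viral RNA and DNA, inhibitors of viral translation, degraders of RNA and a set of brakes on the pathway itself. In brain, microglia with high levels of such genes have been described in ageing, in amyloid models and after injury.

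The sequences in front of the genes are shown first, because many targets of the pathway carry a known element there. A window around the RefSeq start (GRCm38.p6) was given for 31 of the 40 members, and the 250 bases before each start were searched on both strands for the core of the ISRE, written here as GAAA, then 2 bases of any kind, then GAAA. It was found in 12 of the 31 (38.7%) and in 936 of 27025 genes with a window (3.46%). A match is a string of letters and not a measured binding site. No window was given for Oas2, Ifi27l2a, Ifi204, Usp18, Mx1, Rtp4, Parp14, Parp9 and Zbp1.

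Below are the stretches that hold the match in 8 members, some of which share a role. Each is given with 20 bases on each side or up to the start, in the direction of transcription and 5′ to 3′. Capitals mark the matches on either strand, and overlapping matches run together.
Ifit1: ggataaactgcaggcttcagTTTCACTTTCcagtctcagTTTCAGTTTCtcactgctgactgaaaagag
Ifit3: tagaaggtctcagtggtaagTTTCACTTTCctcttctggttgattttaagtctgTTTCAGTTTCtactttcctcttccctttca
Ifit3b: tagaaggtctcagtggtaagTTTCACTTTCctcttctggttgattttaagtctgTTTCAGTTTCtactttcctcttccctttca
Isg15: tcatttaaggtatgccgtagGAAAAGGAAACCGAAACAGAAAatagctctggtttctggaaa
Oas1a: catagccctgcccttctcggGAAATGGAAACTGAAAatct
Oas3: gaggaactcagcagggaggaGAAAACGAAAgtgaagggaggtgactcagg
Bst2: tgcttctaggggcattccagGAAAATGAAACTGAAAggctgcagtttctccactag
Stat2: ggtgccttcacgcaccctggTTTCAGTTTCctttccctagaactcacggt
They lie at chr19:34640765-34640833, plus strand (Ifit1), chr19:34583353-34583436, plus strand (Ifit3), chr19:34607749-34607832, plus strand (Ifit3b), chr4:156200855-156200916, minus strand (Isg15), chr5:120907526-120907565, minus strand (Oas1a), chr5:120777705-120777754, minus strand (Oas3), chr8:71537567-71537622, minus strand (Bst2) and chr10:128270256-128270305, plus strand (Stat2). The 84 bases of Ifit3 and of Ifit3b were identical, and both held the element 2 times. Isg15 held 3 overlapping matches, and Ifit1 2 separate ones. The other members with a match were Rsad2, Slfn5, Slfn8 and Trim30a.

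Members also lay close together on the chromosomes. With a gap of at most 200 kb between neighbours, 17 of the 40 fell into 6 clusters (GENCODE M21 gene bounds, GRCm38). The 4 IFIT genes lay on chromosome 19 from 34550694 to 34650009. Oas1a, Oas2 and Oas3 were on chromosome 5 from 120730333 to 120907521, with Oasl1 and Oasl2 on the same chromosome from 114896936 to 114937915. Parp9, Dtx3l and Parp14 shared chromosome 16 from 35832874 to 35972605, the Schlafen genes Slfn2, Slfn5 and Slfn8 chromosome 11 from 82951349 to 83070678, and Cmpk2 and Rsad2 chromosome 12 from 26442746 to 26479837.

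Most interferon-stimulated genes had more RNA inside the graft than outside it. The fitted log2 fold change, inside over outside, was above 0 for 39 of 40 members, against 49.2% of all tested genes, and its median was 0.78, or 1.72-fold, against -0.0064 over all tested genes. It was above 1 for 14 members (7.26% of all genes) and below -1 for none. Ddx58 was the single member below 0. The members were read in the same 7 libraries and many rose and fell together across them, as given below. They are therefore not 40 independent observations. These are bulk samples, so more cells with an interferon response and more of this RNA in each cell cannot be told apart. Markers of neutrophils and monocytes were also higher inside, as given below, and the part of such cells' RNA was not tested.

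Single genes rarely passed a test across the whole table. By the quasi-likelihood test of edgeR, with P values adjusted by the method of Benjamini and Hochberg, 0 of the 40 members had an adjusted P below 0.05, where 0.0983% of all genes were called higher and 0 lower. At an unadjusted P below 0.05, 24 members were higher (5.76% of all genes) and 0 lower (3.79%). The smallest adjusted P of a member was 0.0626, for Oas2. The study's own test, voomWithQualityWeights, called 2 members higher, Oas2 and Ifitm3, against 0.433% of all genes, and 0 lower (0.059%). Without inside graft 1 it called 5 members (0.352% of all genes in either direction), without inside graft 2 the same 2 (1.29%), and without outside graft 1 Ifitm3 alone (0.24%). It called 0 members without inside graft 3 (0.302%), outside graft 2 (0.341%), outside graft 3 (0.00673%) or outside graft 4 (0.00671%). It called 0 at the study's threshold of 0.01 (0.0197% of all genes). At an unadjusted P below 0.05 it gave 27 members higher (7.47%) and 0 lower (4.71%). DESeq2's Wald test called 10 members, all higher, against 2.1% of all genes: Bst2, Ifi204, Ifi27l2a, Ifit2, Ifitm3, Irf7, Oas2, Oasl2, Stat2 and Zbp1.

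In 18 of 40 members all 3 inside libraries exceeded all 4 outside libraries, against 5.65% of all genes, and in 0 members they all fell below (5.02%). The 18 were Stat2, Irf7, Ifih1, Ifi204, Ifit1, Ifit2, Ifit3, Oas1a, Oas2, Oasl2, Usp18, Herc6, Trim25, Parp14, Ifitm3, Ifi27l2a, Cmpk2 and Ifi44. In the other 22 the groups overlapped. The members' 7 libraries, grouped by role, are drawn in the heat map of relative levels.

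**Figure D1:**
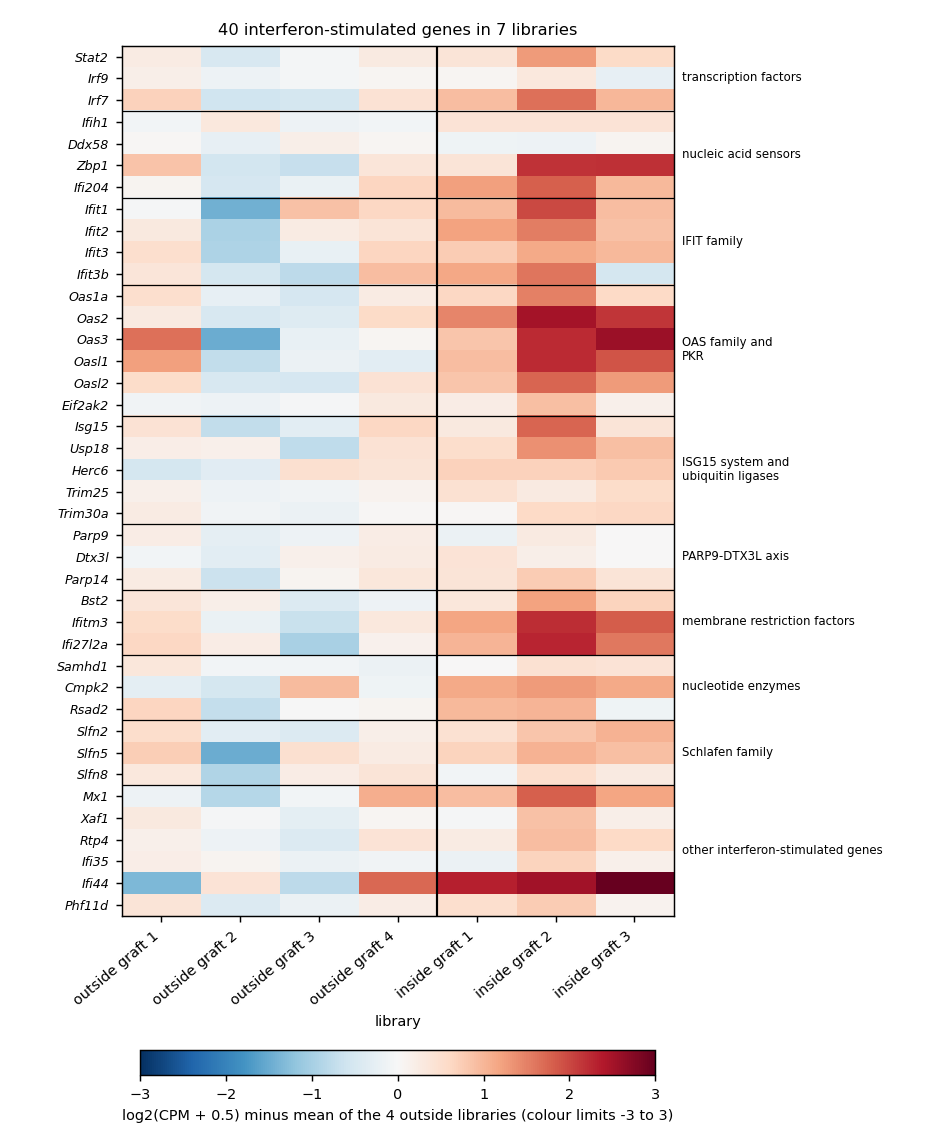
Heat map of the 40 members (rows, grouped by role) in 4 outside and 3 inside libraries (columns). Colour gives log2(CPM + 0.5) minus the mean of the 4 outside libraries, with colours capped at -3 and 3, where CPM is TMM-normalized CPM. Inside graft 2 held the highest of the 7 values in 31 members, and outside graft 2 the lowest in 22.

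Levels were not even within a group. Among the 7 libraries, inside graft 2 was highest in 31 members, inside graft 3 in 7, inside graft 1 in 1 (Dtx3l) and outside graft 3 in 1 (Ddx58). The lowest value was in outside graft 2 for 22 members and in outside graft 3 for 13. The members' median relative level, as log2(CPM + 0.5) minus the mean of the outside libraries, was 0.51, 1.18 and 0.64 in inside graft 1, 2 and 3. In outside graft 1 to 4 it was 0.28, -0.37, -0.18 and 0.27. CPM stands for counts per 1000000 counts of a library after TMM normalization. Outside graft 1 and 4 both lay above outside graft 2 and 3 in 25 of 40 members. No share over all genes was computed for these counts of highest and lowest libraries, which describe the members alone. Summed over the members, the inside libraries held 2003, 3036 and 2301 CPM and the outside libraries 1826, 1319, 1390 and 1753 CPM, so the inside libraries were above all outside ones, with the smallest gap between inside graft 1 and outside graft 1.

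In the following, levels in CPM are given in the order inside graft 1, 2 and 3 and outside graft 1, 2, 3 and 4, and a fold change is edgeR's log2 fold change with its standard error (n = 3 inside and n = 4 outside).

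The transcription factors came first in the pathway and split. Irf7, which drives the later wave of interferon production, read 49.3, 82.3 and 51.98 CPM inside and 42.1, 16.7, 17.7 and 34.99 CPM outside. The groups did not overlap, and outside graft 1 and 4 came closest to the inside libraries. Its fold change was 1.13 ± 0.33 (adjusted P = 0.245 by edgeR, 0.0838 by voomWithQualityWeights). Stat2, the STAT found in ISGF3, had 100.4, 188 and 116 CPM inside and 91.2, 55.4, 74.6 and 93.7 CPM outside. These did not overlap either, though inside graft 1 stood only a little above outside graft 4, and the fold change was 0.77 ± 0.24 (edgeR adjusted P = 0.268). Irf9, the DNA-binding part of ISGF3, read 132, 158 and 107 CPM inside and 143, 114, 121 and 132 CPM outside. Inside graft 3 was the lowest of all 7 libraries and the groups overlapped throughout, with a fold change of 0.055 ± 0.15, and the 95% interval of the difference by voomWithQualityWeights ran from -0.22 to 0.37.

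Among the nucleic acid sensors, Ifi204 and Zbp1 had the larger fold changes and Ifih1 and Ddx58 the smaller, a contrast between genes that was not itself tested. Ifi204, a DNA sensor of the p200 family, read 61.4, 91.4 and 51.5 CPM inside and 27.5, 18.1, 22.5 and 40.5 CPM outside. Every inside library was above every outside one, and the fold change was 1.33 ± 0.28 (edgeR adjusted P = 0.101). Of the 75-base windows of Ifi204 transcripts, 13.2% also occur in other genes, mostly Ifi211, and reads that fit several places were not counted. Zbp1, a sensor of Z-form nucleic acids that can start necroptosis, had 8.596, 30.9 and 31.4 CPM inside and 12.3, 4.27, 3.86 and 8.59 CPM outside. Inside graft 2 and 3 were far above the rest, while inside graft 1 lay within the outside range, and the fold change was 1.71 ± 0.51 (edgeR adjusted P = 0.248).

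Ifih1, which encodes the long double-stranded RNA sensor MDA5, read 38.04, 38.1 and 37.96 CPM inside and 26.8, 35.8, 25.4 and 27.01 CPM outside. The inside libraries were nearly equal, and outside graft 2 came close to them, for a fold change of 0.40 ± 0.17 (edgeR adjusted P = 0.47). Ddx58, which encodes the RNA sensor RIG-I, had 59.4, 58.3 and 68.5 CPM inside and 66.3, 54.6, 73.99 and 67.4 CPM outside. Its highest value was in outside graft 3 and the groups overlapped, with a fold change of -0.078 ± 0.14 and a voomWithQualityWeights interval of -0.43 to 0.19.

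The IFIT genes, whose products bind viral RNA and block its translation, were all higher by their fold changes, with a median of 1.03 over the 4. Ifit1 read 13.8, 28.8 and 13.6 CPM inside and 6.72, 2.22, 13.2 and 10.9 CPM outside. Inside graft 2 stood well above the rest, and inside graft 1 and 3 barely above outside graft 3 (fold change 1.18 ± 0.51). Ifit2 read 57.6, 71.8 and 45.3 CPM inside and 30.3, 12.5, 29.2 and 32.1 CPM outside. Here the groups were clearly apart, with outside graft 2 far below the other outside libraries, and the fold change was 1.16 ± 0.30 (edgeR adjusted P = 0.163, DESeq2 0.00756).

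Ifit3 read 46.2, 60.3 and 53.2 CPM inside and 38.3, 14.01, 23.1 and 42.2 CPM outside, and its near copy Ifit3b 9.85, 13.6 and 2.74 CPM inside and 5.496, 2.71, 2.21 and 8.38 CPM outside. Ifit3 did not overlap between groups, whereas Ifit3b in inside graft 3 was about as low as in outside graft 2 and 3. Their fold changes were 0.86 ± 0.32 and 0.89 ± 0.59. Of their 75-base windows, 41.1% (Ifit3) and 35.7% (Ifit3b) are the same in both genes, so their separate values are uncertain. With both counts summed, an alternative added after seeing the data, the fold change was 0.86. Reads that fit both genes were not counted, so the sum does not remove this uncertainty.

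The 2′-5′-oligoadenylate synthetases, which switch on RNase L, held the largest differences next to the membrane factors, with a median of 1.49 over the 6 genes of this family and PKR. Oas2 read 16.8, 34.8 and 27.2 CPM inside and 7.04, 4.003, 4.305 and 8.79 CPM outside. The groups were widely apart, and the lowest inside library was above the highest outside one by a clear margin. Its mean was 26.3 ± 9.01 CPM inside (SD, n = 3) and 6.04 ± 2.29 CPM outside (SD, n = 4), and its fold change 2.12 ± 0.35 gave an adjusted P of 0.0626 by edgeR, 0.0398 by voomWithQualityWeights and 3.15e-06 by DESeq2. Oas3 read 2.87, 8.39 and 10.7 CPM inside and 5.39, 0.178, 1.13 and 1.46 CPM outside. Inside graft 1 was below outside graft 1, so the groups overlapped, and the fold change of 1.85 ± 0.86 was imprecise. Oas1a read 29.99, 55.8 and 29.7 CPM inside and 27.4, 16.4, 13.6 and 22.9 CPM outside. The groups did not overlap, though only inside graft 2 stood clearly above outside graft 1, and the fold change was 0.94 ± 0.30, while 47.6% of Oas1a windows also occur in Oas1g.

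Of the OAS-like genes, Oasl2 read 77.2, 145 and 104 CPM inside and 62.8, 30.8, 30.2 and 57.8 CPM outside. All inside libraries were above all outside ones, with a fold change of 1.26 ± 0.30 (edgeR adjusted P = 0.13, DESeq2 0.00152). Oasl1, reported to restrain translation of Irf7, ranged from 5.299 to 13.9 CPM inside and from 1.33 to 6.72 CPM outside, with outside graft 1 above inside graft 1 (fold change 1.72 ± 0.57). Eif2ak2, which encodes the translation-blocking kinase PKR, read 41.3, 66.6 and 39.3 CPM inside and 33.03, 31.98, 34.7 and 43.7 CPM outside. Apart from inside graft 2 the libraries were mixed, and the fold change was 0.45 ± 0.21.

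In the ISG15 system, the differences were moderate, with a median of 0.67 over 5 genes and none above 1. Isg15, a ubiquitin-like protein that is joined to other proteins, read 10.6, 30.1 and 11.4 CPM inside and 11.7, 4.94, 6.799 and 13.5 CPM outside. Inside graft 1 and 3 lay within the outside range, so the fold change of 0.91 ± 0.45 rested on inside graft 2 and was 0.25 without it. Usp18, which removes ISG15 and also damps the interferon receptor, read 38.1, 69.1 and 50.2 CPM inside and 30.3, 29.5, 15.4 and 35.7 CPM outside. It did not overlap between groups, with the gap between inside graft 1 and outside graft 4 small (fold change 0.92 ± 0.29, edgeR adjusted P = 0.276).

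Among the ligases, Trim30a, a TRIM protein that limits inflammatory signalling, read 127, 188 and 189.9 CPM inside and 148, 114, 110.1 and 127 CPM outside. Inside graft 2 and 3 were above every outside library and inside graft 1 was not (fold change 0.43 ± 0.16). Herc6, the ISG15 ligase of mice, ran from 43.2 to 45.96 CPM inside and from 18.2 to 37.1 CPM outside, and Trim25, which ubiquitinates RIG-I, from 46.9 to 56.6 and from 34.7 to 43.2 CPM. Neither overlapped, with fold changes of 0.67 ± 0.25 and 0.43 ± 0.15. Herc6 shares 11.3% of its windows with Gm45193.

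The PARP9-DTX3L axis had the smallest median of the roles, 0.20 over 3 genes. Parp14, an ADP-ribosyltransferase of macrophages, read 85.3, 111 and 85.3 CPM inside and 76.9, 41.4, 68.96 and 82.7 CPM outside. The groups just failed to overlap, with a fold change of 0.48 ± 0.22. Parp9 read 85.5, 117 and 98.2 CPM inside and 113, 79.6, 86.5 and 113 CPM outside. Inside graft 1 was below 3 of the 4 outside libraries, and the fold change was 0.034 ± 0.17. Dtx3l, its ubiquitin ligase partner, had 95.2 to 125 CPM inside and 74.6 to 112 CPM outside (fold change 0.20 ± 0.16). Parp9 and Dtx3l lie on opposite strands with overlapping ends, and strand was not used in the counting. The voomWithQualityWeights intervals of all 3 genes lay between -1 and 1.

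The membrane restriction factors had the largest median of the roles, 1.63 over 3 genes. Ifitm3, which blocks entry of viruses from endosomes, read 73.8, 152 and 115 CPM inside and 47.5, 28.2, 20.4 and 40.3 CPM outside. The groups did not overlap, with means of 114 ± 39.2 CPM inside (SD, n = 3) and 34.1 ± 12.1 CPM outside (SD, n = 4). Its fold change of 1.74 ± 0.30 had an adjusted P of 0.0682 by edgeR, 0.0374 by voomWithQualityWeights and 2.73e-06 by DESeq2. Ifi27l2a, a small interferon-induced membrane protein gene, read 71.8, 174 and 106 CPM inside and 53.9, 41.5, 17.6 and 38.6 CPM outside. It did not overlap, and outside graft 3 was the lowest library (fold change 1.63 ± 0.36, edgeR adjusted P = 0.116). Bst2, or tetherin, which holds budding virus at the cell surface, read 134, 244 and 167 CPM inside and 136, 120.2, 79.4 and 95.7 CPM outside. Inside graft 1 lay just below outside graft 1, and the fold change was 0.76 ± 0.23 (edgeR adjusted P = 0.252).

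**Figure D2:**
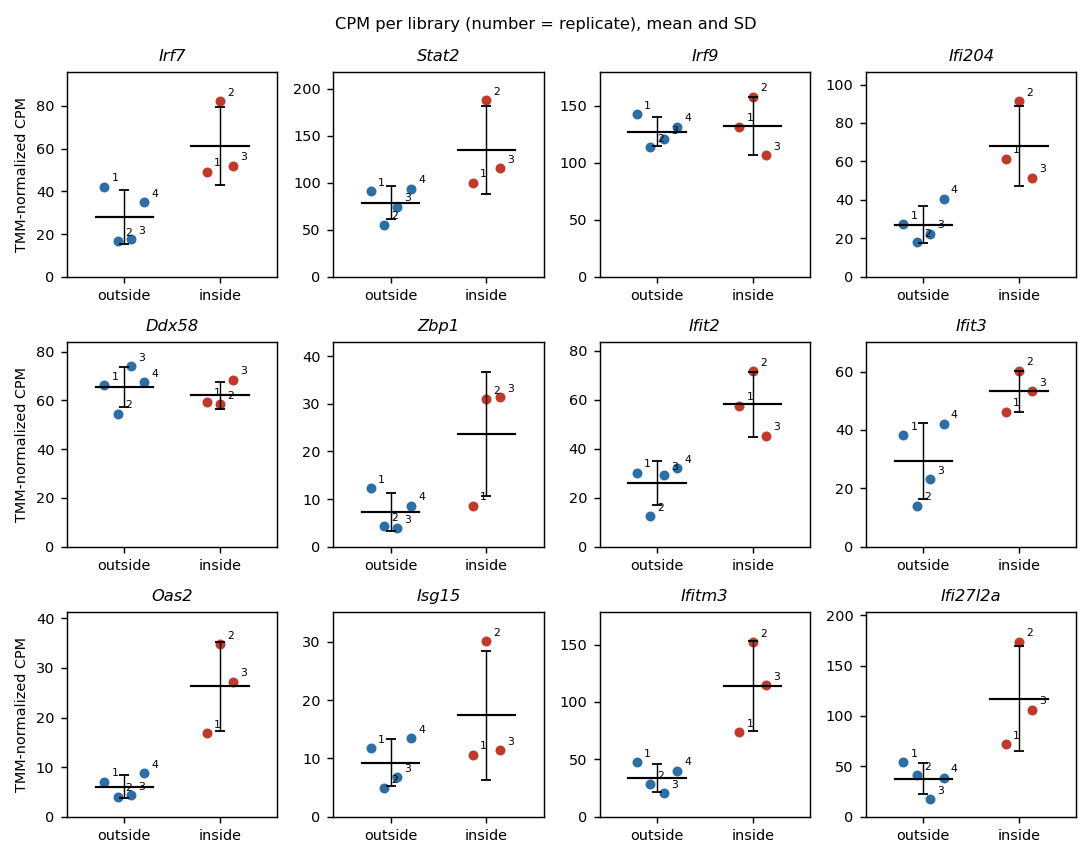
TMM-normalized CPM of 12 members in each library, outside (blue, 4 points) and inside (red, 3 points) the graft, with the replicate number beside each point. Bars give the mean and SD of a group, and each vertical axis starts at 0. Oas2, Ifitm3, Ifi27l2a, Ifi204 and Ifit2 do not overlap between the groups, whereas Irf9, Ddx58, Zbp1 and Isg15 do.

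Of the nucleotide enzymes, Samhd1, which breaks down deoxynucleotides, read 112, 152 and 148 CPM inside and 141, 105, 105 and 98.9 CPM outside. The groups overlapped through outside graft 1 and inside graft 1 (fold change 0.29 ± 0.16). Rsad2, or viperin, which makes a chain-terminating nucleotide, read 18.2, 18.9 and 8.21 CPM inside and 14.4, 5.29, 9.05 and 9.72 CPM outside. Inside graft 3 was as low as the outside libraries, unlike in most members, and the fold change was 0.65 ± 0.38. Cmpk2, its neighbour and a mitochondrial nucleotide kinase, had 8.596 to 9.54 CPM inside and 2.402 to 7.56 CPM outside and did not overlap (fold change 1.14 ± 0.43).

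The Schlafen genes, known as regulators of immune cell quiescence and of translation, overlapped between groups in all 3 cases. Slfn2 read 7.497, 9.85 and 11.4 CPM inside and 7.95, 4.18, 3.903 and 6.07 CPM outside, Slfn5 6.24, 8.21 and 7.498 and 6.62, 1.02, 5.43 and 4.58 CPM, and Slfn8 7.65, 11.6 and 9.94 and 10.1, 4.09, 9.495 and 10.7 CPM. For each, outside graft 1 lay at or above inside graft 1, and outside graft 2 was lowest for Slfn5 and Slfn8. The fold changes were 0.80 ± 0.35, 0.73 ± 0.53 and 0.18 ± 0.36.

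Of the remaining members, Mx1, a gene of the dynamin-like GTPase family, read 21.7, 39.99 and 26.2 CPM inside and 10.03, 5.92, 10.5 and 24.2 CPM outside. Outside graft 4 lay above inside graft 1, so the groups overlapped, with a fold change of 1.205 ± 0.42. Rtp4, a chaperone of receptor transport, read 78.3, 125 and 99.7 CPM inside and 73.4, 59.3, 49.04 and 87.6 CPM outside. Again outside graft 4 was above inside graft 1 (fold change 0.59 ± 0.22), and 10.5% of Rtp4 windows also occur in Gm45338. Ifi44 had the largest fold change of all members, 2.67 ± 1.04, from 5.97, 6.79 and 12.01 CPM inside and 0, 1.201, 0.241 and 3.69 CPM outside. The groups did not overlap, but 2 of the 4 outside values were at or below 0.241 CPM and the fold change is imprecise (edgeR adjusted P = 0.427). Xaf1, a binding partner of the apoptosis inhibitor XIAP, Ifi35 and Phf11d had fold changes of 0.39 ± 0.24, 0.25 ± 0.20 and 0.46 ± 0.23 and overlapped between groups. Of the Ifi35 exon bases, 16.8% also belong to a gene on the other strand.

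**Figure D3:**
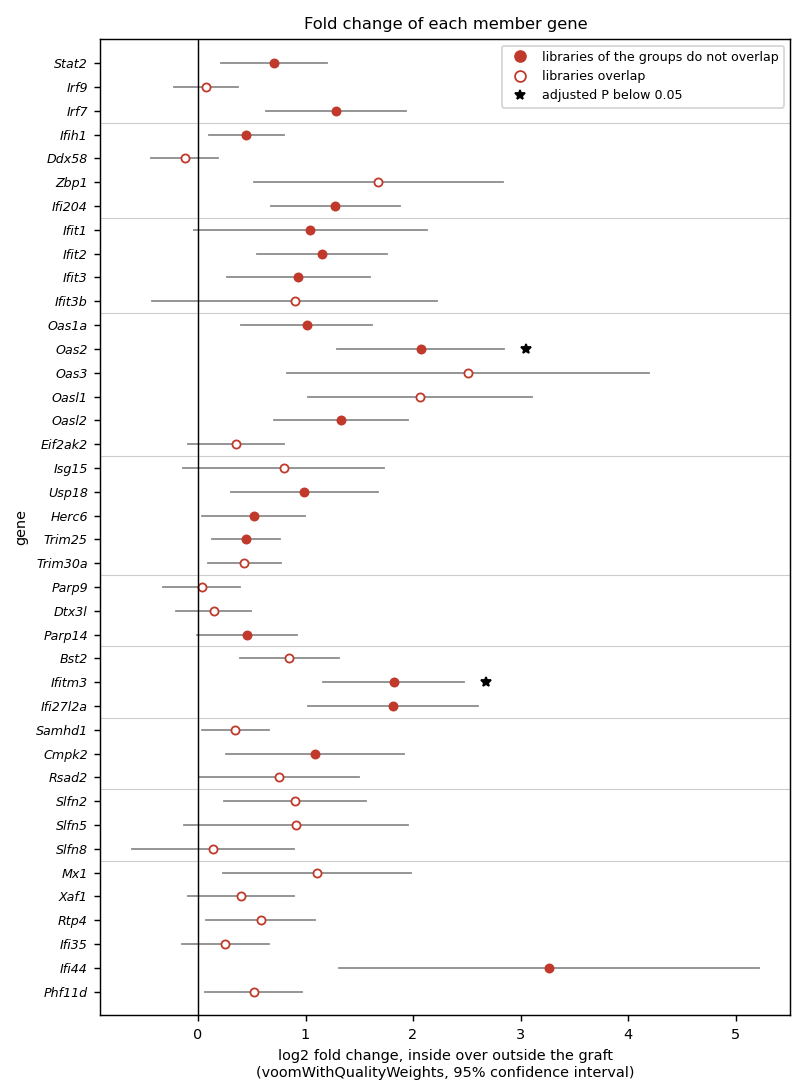
Log2 fold change (inside over outside) of each member by voomWithQualityWeights (points) with its 95% confidence interval (lines), in the order of the roles. Filled points mark the 18 members whose libraries did not overlap, and stars the 2 with an adjusted P below 0.05, Oas2 and Ifitm3. The intervals of 27 members lie above 0 and that of none below 0.

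The intervals set how much of a difference these libraries could miss. By voomWithQualityWeights, the 95% interval of 27 members lay wholly above 0, against 7.47% of all genes, and that of 5 wholly above 1, against 1.3%. It lay wholly between -1 and 1 for 15 members, against 58.1% of all genes. For the other 25 it reached a 2-fold difference or more.

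Compared per length, as mean CPM per kilobase of exon, the outside libraries had most RNA of Bst2 (119), Ifi27l2a (81.9) and Ifitm3 (50.3), and least of Ifi44 (0.209) and Oas3 (0.288). Inside the graft the order at the top was Ifi27l2a (253), Bst2 (201) and Ifitm3 (168), and Ifi44 (1.35) and Oas3 (1.04) stayed among the lowest. The 20 members with the higher mean level over all 7 libraries had a median log2 fold change of 0.82, with 6 above 1, and the 20 with the lower level 0.76, with 8 above 1. The 12 members with the ISRE core in the 250 bases before the start had a median of 0.82, the 19 with a window but no match 0.46, and the 9 without a window 1.205. These are descriptions of the list without a test.

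Genes upstream of the response had a median fold change near 0, with exceptions in both directions. Of 21 genes for type I, type II and type III interferons or relatives in the list, 18 had 0 counts in all 7 libraries and none passed the filter. Ifnb1, the interferon that macrophages make first, had 7 counts in inside graft 2 and 0 in the other 6 libraries. Ifng likewise had 6 counts in inside graft 2 and 0 elsewhere. Ifnz had 4 counts in inside graft 1 and 1 each in outside graft 1 and 2. A count of 0 allows up to 3 counts, or 0.116 to 0.161 CPM per library, so low levels of these genes were not detectable at this depth, and amplified reads without molecular identifiers may come from a single molecule. Such intervals and limits cover counting error only.

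Both chains of the type I interferon receptor were present in every library. Ifnar1 ranged from 144 to 158 CPM inside and from 131 to 168 CPM outside (fold change 0.034 ± 0.12), and Ifnar2 from 292 to 362.6 and from 247 to 296 CPM (0.21 ± 0.12). Ifngr1, a chain of the interferon-gamma receptor, was lower in all 3 inside libraries, at 999, 953 and 925 CPM against 1122, 1072, 1247 and 1221 CPM, by a fold change of -0.28 ± 0.096 (edgeR adjusted P = 0.33). Ifnlr1, a chain of the type III interferon receptor, did not pass the filter, with 105, 2 and 71 counts inside and 2, 0, 3 and 0 counts outside, so inside graft 2 was as low as the outside libraries. The kinase genes overlapped, with -0.13 ± 0.15 for Jak1 and 0.077 ± 0.20 for Tyk2. Irf3, which starts interferon transcription, and Irf8, whose loss altered microglial shape and process motility in the study, had fold changes of -0.020 ± 0.12 and 0.045 ± 0.12. Over 34 pathway genes tested out of 57, 19 were above 0 and 15 below, with a median of 0.051. Neither edgeR nor voomWithQualityWeights called any at an adjusted P below 0.05 (0.0983% and 0.433% of all genes higher, 0 and 0.059% lower). At an unadjusted P below 0.05 edgeR gave 4 of the 34, against 5.76% of all genes higher and 3.79% lower. VoomWithQualityWeights gave 6 at that level, against 7.47% higher and 4.71% lower.

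DESeq2 called 2 pathway genes, 1 higher and 1 lower, against 2.1% of all genes higher and 0.655% lower. Both are named after their values were seen. Ikbke, which encodes a kinase that activates IRF3, read 7.34, 5.41 and 7.04 CPM inside and 0, 0.4003, 0.0402 and 1.26 CPM outside. The groups did not overlap, and the outside libraries were at or near 0, for a fold change of 3.92 ± 1.03 (adjusted P = 0.00376 by DESeq2, 0.0546 by voomWithQualityWeights, 0.174 by edgeR). The outside libraries alone would not have passed Ikbke through the filter on low counts. It was thus tested only because of its inside values, and its missing overlap and calls are no separate support. Tmem173, which encodes the adaptor STING of the DNA-sensing route, read 518, 568 and 552 CPM inside and 732, 714, 701 and 717 CPM outside. All inside libraries were below all outside ones, with a fold change of -0.39 ± 0.092 (adjusted P = 0.00095 by DESeq2, 0.0546 by voomWithQualityWeights, 0.13 by edgeR).

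Interferon-stimulated genes outside the 40 were also mostly higher. Their list, like that of the members, was chosen with earlier results of these data known. Some of its genes, such as Oas1g and Ifi211, share sequence with members, so the list is not independent support. Of 48 further interferon-stimulated genes, 44 were tested and 36 had a fold change above 0, with a median of 0.37 and 13 above 1. VoomWithQualityWeights called 3 of them higher at an adjusted P below 0.05 (0.433% of all genes), edgeR 0 (0.0983%, with 15 at an unadjusted P below 0.05 against 5.76%) and DESeq2 9 (2.1%). DESeq2 added Oas1g, Ifi209, Ifi211, Sp100, Lgals3bp and Ube2l6. The 3 called by voomWithQualityWeights were Ifi207 and Ifi213, relatives of Ifi204 in the p200 family, and Ifitm2, a relative of Ifitm3. Ifi207 read 25.6, 38.7 and 33.3 CPM inside and 17.2, 3.74, 9.13 and 8.91 CPM outside, Ifi213 13.8, 20.02 and 23.5 and 6.99, 1.82, 2.09 and 5.51 CPM, and Ifitm2 7.73, 10.4 and 14.8 and 1.39, 2.71, 2.17 and 3.199 CPM. None of the 3 overlapped between groups, and their adjusted P values were 0.0367, 0.0374 and 0.0411. Of 15 genes that lean towards interferon-gamma, 12 were tested and 10 were above 0, with a median of 0.65. Of the 12, 5 were above 1 (7.26% of all genes) and 3 did not overlap, all higher inside (5.65%). At an adjusted P below 0.05, edgeR called 1 higher (0.0983% of all genes), voomWithQualityWeights 1 (0.433%) and DESeq2 2 (2.1%). EdgeR's call was Cd274, the gene of the checkpoint ligand PD-L1, which was named after its values were seen. Cd274 read 42.9, 39.2 and 39.4 CPM inside and 8.43, 17.97, 13.5 and 12.8 CPM outside (edgeR adjusted P = 0.0485). EdgeR's call of Cd274 held without outside graft 1 and was lost when any other library was left out (adjusted P of 0.0514 to 0.145). It was also lost with the replicate number as a block (edgeR adjusted P = 0.0996). It held with DESeq2 size factors (edgeR adjusted P = 0.0477) and with all genes with any count (edgeR 0.000245). DESeq2's Wald test gave an adjusted P of 1.75e-07. The ISRE core stood in 18 of 41 further genes with a window (43.9%).

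**Figure D4:**
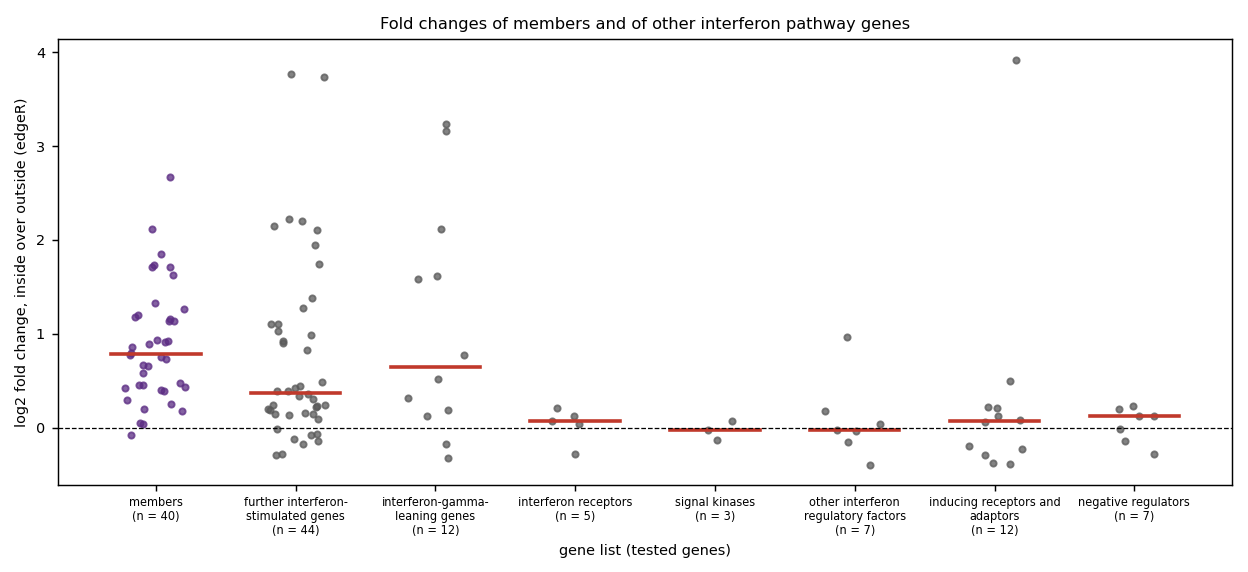
Log2 fold change (inside over outside, edgeR) of every tested gene in 8 lists, with 1 point per gene, a red bar at each list's median and a dashed line at the median of all tested genes. The median is 0.78 for the 40 members and 0.37 for the 44 further interferon-stimulated genes, and lies near 0 for receptors, kinases, regulatory factors, inducing receptors and negative regulators.

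Summed marker levels of several other cell types did not overlap between the groups, some being higher and some lower inside. Single marker genes were rarely called at an adjusted P below 0.05. Of 59 tested, edgeR called 0 (0.0983% of all genes higher, 0 lower). VoomWithQualityWeights called 2, both proliferation genes and higher (0.433%), and 0 lower (0.059%). DESeq2 called 10 higher (2.1%) and 4 lower (0.655%). All 10 microglia marker genes were expressed, with summed levels of 45138 to 52403 CPM inside and 51602 to 57594 CPM outside, and all 10 had fold changes below 0. The summed level of 6 neutrophil markers was 6486, 648 and 13618 CPM inside and 0.640, 0.311, 290.0 and 18.1 CPM outside. All 6 were higher inside by fold change. The 10 monocyte markers summed to 771, 111 and 1579 CPM inside and 18.4 to 36.2 CPM outside (8 of 9 tested higher), and the 9 markers of border-associated macrophages to 120, 18.1 and 125 CPM inside and 6.32 to 17.8 CPM outside (8 of 8 tested higher). The 6 markers of plasmacytoid dendritic cells, a main source of type I interferon elsewhere, reached 214 to 273 CPM inside and 209 to 241 CPM outside (3 of 4 tested higher). Lymphocyte markers stayed at or below 13.3 CPM, with 5 of 10 at 0 in all libraries. Astrocyte markers summed to 248 to 298 CPM inside and 326 to 351 CPM outside (3 of 5 tested lower). Endothelial markers summed to 19.2 to 25.7 CPM inside and 28.1 to 47.0 CPM outside (2 of 3 tested lower). The summed markers of neurons and of oligodendrocytes overlapped between the groups. The 8 proliferation genes summed to 122 to 156 CPM inside and 36.7 to 69.4 CPM outside (8 of 8 higher).

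Inside graft 2 had the highest level of interferon-stimulated genes and, among the inside libraries, the lowest neutrophil, monocyte and border-associated macrophage markers. It lay above every outside library in 38 of 40 members, inside graft 3 in 28 and inside graft 1 in 22. The same share over all genes was not computed for single libraries, so these counts describe the members alone. Without inside graft 3, the library with most neutrophil RNA, the members' median log2 fold change was 0.86, without inside graft 1 it was 0.94, and without inside graft 2 it was 0.54. Outside graft 3, the outside library with most neutrophil RNA, had the second lowest median of the members. The part of the other cells' RNA in the level of any single member was not tested.

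**Figure D5:**
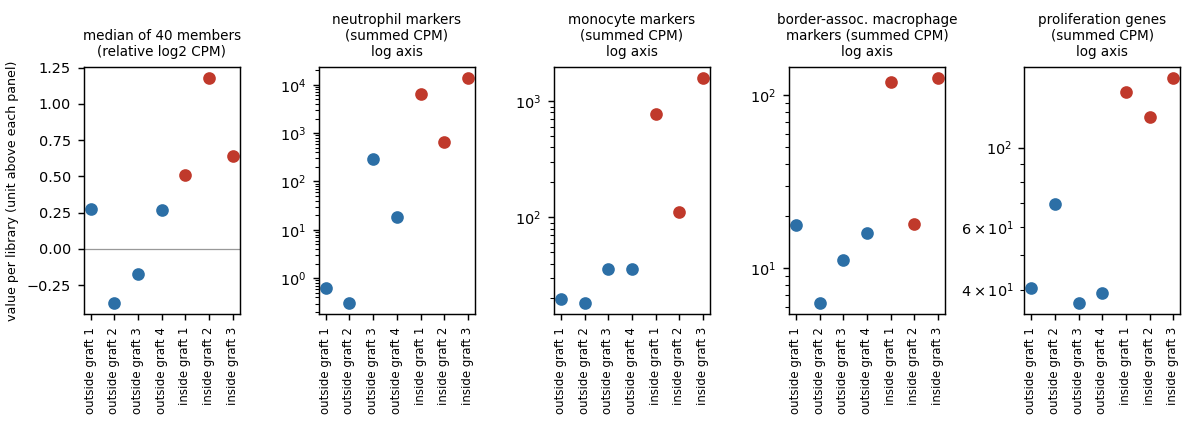
Levels per library, outside (blue) and inside (red) the graft: the median over the 40 members of log2(CPM + 0.5) minus the outside mean, and the summed CPM of markers of neutrophils, monocytes and border-associated macrophages and of proliferation genes on log axes. Inside graft 2 is highest for the members, at 1.18, and has the lowest neutrophil marker sum of the inside libraries, 648 CPM.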

How the data were processed

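Bulk RNA-seq libraries of 3 inside and 4 outside samples were grouped by their titles. The authors sorted cells, amplified cDNA by PCR, aligned 75-base single reads with STAR 2.7.2a to GRCm38 (GENCODE M21; GRCm38.p6 in the submitters' processing notes) and deposited unnormalized read counts, 1 row for each gene name, made by featureCounts 1.6.2 at standard settings, which use no strand and leave out reads with several alignments. Total counts ran from 18644807 to 25882122, with TMM factors of 0.950 to 1.02. Libraries of a group differed by more than sampling noise.

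CPM (counts scaled to 1000000 per library after TMM normalization) and fold changes were computed from these in R 4.3.3. The main test was glmQLFit and glmQLFTest of edgeR 4.0.16, beside voomWithQualityWeights of limma 3.58.1, the study's test, and DESeq2 1.42.0, all over 15257 genes kept by filterByExpr. Standard errors of edgeR follow from its F statistic. P values were adjusted over all tested genes, with a threshold of 0.05. Relative levels used a pseudocount of 0.5 CPM. Promoter windows came from RefSeq. Scripts were tested on simulated data.

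The members and all gene lists were chosen with earlier results of these data known. Per-library values were given for members picked by name, members past the threshold and the 3 largest and 3 lowest fold changes, and outside the list for receptor, kinase and factor genes and any pathway or further interferon-stimulated gene called by edgeR or voomWithQualityWeights. Cd274, Ikbke and Tmem173 were added after their values were seen. Of the pathway list, 1 gene is not reported here. Herc6, Trim25, Oasl1, Dtx3l, Cmpk2, Xaf1, Ifi35 and Phf11d were given more briefly. Alternatives were other size factors, a looser filter, DESeq2, voom without weights, a threshold of 0.01, the replicate number as a block and each library left out.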

Additional observations from a re-analysis of the deposited data

Results flagged for a closer look

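In 4 of the 55 values tested among the 4 outside libraries, 1 library stood apart from the other 3 by Dixon's criterion, which chance alone gives for about 1 in 20 groups. Ifih1 was at 35.8 CPM in outside graft 2, where the other outside libraries had 25.4 to 27.0 CPM. Ifit2 was at 12.5 CPM in the same library, against 29.2 to 32.1 CPM, so that library was high for one and low for the other. Oasl1 was at 6.72 CPM in outside graft 1, against 1.33 to 2.21 CPM. Samhd1 was at 141 CPM in that library, against 98.9 to 104.6 CPM. Outside graft 1 had the lowest total count and the lowest quality weight, 0.448, and outside graft 4 the highest, 1.76.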

How the results depend on the processing

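The number of members above 0 stayed at 36 to 39 and their median log2 fold change at 0.54 to 0.97 over all settings that gave them, with the lowest median without inside graft 2 and the highest without outside graft 1. Calls of single members did not stay. EdgeR called 0 members, and 10 when all genes with any count were tested (366 of 29525 genes). DESeq2 called the same 10 members (420 of all genes), 2 of them also called by voomWithQualityWeights. VoomWithQualityWeights called 2 members, 4 with any count (225 genes), 0 at an adjusted P below 0.01 and 0 without quality weights (10 genes). Leaving out a library gave 0 to 5 calls by voomWithQualityWeights: 5 when inside graft 1 was dropped (56 of all genes), 2 when inside graft 2 was (207), 1 when outside graft 1 was (36), and 0 when inside graft 3 (48), outside graft 2 (51), outside graft 3 (1) or outside graft 4 (1) was. EdgeR called 0 in each case. Members without overlap numbered 18 to 28, with 28 without inside graft 1. The share over all genes was computed only for the full set of libraries, and non-overlap is easier to reach with fewer. The counts with a library left out therefore cannot be set against the count in the full set.

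The labels do not say whether equal replicate numbers mark the same mouse. The deviations of same-numbered libraries correlated at -0.043, 0.090 and 0.067. Inside graft 2 and 3 correlated best with their own number, and inside graft 1 did not. With so few libraries these values cannot tell whether the numbers pair the libraries. With the replicate block (outside graft 4 has no partner and drops out), voomWithQualityWeights called 15 members (265 of all genes) and edgeR 0 (43), and Ifnar1 turned to -0.021.

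Of 595 fold changes of single genes under alternatives, 545 kept direction and side of the threshold, 29 passed it newly, 7 (all of Cd274) fell short of it and 14 turned. Those that turned on leaving out a library ranged from -0.093 to 0.19 (Irf9), -0.091 to 0.14 (Parp9), -0.053 to 0.33 (Slfn8), -0.014 to 0.43 (Ifi35), -0.022 to 0.095 (Ifnar1), -0.23 to 0.0058 (Jak1), -0.074 to 0.19 (Tyk2), -0.068 to 0.044 (Irf3) and -0.088 to 0.13 (Irf8). The cause was not tested. At 18644807 to 25882122 counts per library, members near 1 CPM, such as Oas3 and Ifi44 outside the graft, rest on few reads.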
